A study of Homo sapiens with 8 samples.

Results

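The RAB small GTPases are a family of human genes whose RNA levels were compared in SH-SY5Y cells with and without added ERRg. Members were taken by name as the protein-coding rows of the deposited count table whose symbol is RAB, a number and at most a letter and a further digit. Of 64 symbols with this form, RAB1C was left out because it is annotated as a processed pseudogene, which left 63 genes of the 67060 in the table. Of these, 54 had enough reads to be tested, among 21993 tested genes.

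RAB proteins are molecular switches of membrane traffic. In the GTP-bound form each RAB sits on particular membranes and binds effectors that tether, move or fuse vesicles, and in the GDP-bound form it is pulled off the membrane by GDP dissociation inhibitor. Exchange factors (DENN domain proteins, TRAPP complexes, RIN proteins) load GTP, TBC domain proteins trigger its hydrolysis, and Rab escort protein presents new RABs for the lipid modification that anchors them. In neurons, RABs are known for synaptic vesicle release (RAB3), dendritic and axonal membrane delivery (RAB8, RAB10, RAB11) and endosomal sorting of growth factor receptors (RAB5, RAB7).

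SH-SY5Y is an established human neuroblastoma cell line, which the labels call a neuronal progenitor. For all 8 libraries, cells at 80% confluence were given 0.5 ul of an adenovirus for 48 h. The control virus (GFP, 4 libraries) carried BioID-GFP-NLS, a biotin ligase joined to a nuclear form of green fluorescent protein. The other virus (ERRg, 4 libraries) carried BioID-Flag-ERRg, the same ligase joined to the Flag-tagged orphan nuclear receptor estrogen-related receptor gamma. Both groups therefore carry an adenovirus and the ligase, and untreated cells were not analysed here. Whether the libraries of a group are separate cultures is not in the labels, and the p-values below are measured against the spread of these libraries, a spread that may be technical.

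Reads assigned to genes numbered 27.7 to 35.5 M per GFP library and 21.02 to 23.0 M per ERRg library. The share of reads that fell outside annotated exons was 20.9% ± 3.58 for GFP against 46.7% ± 1.31 for ERRg (SD, n = 4 each), a difference that cannot be told apart from that of the viruses. ESRRG, the gene delivered by the virus, stood at 34.9 ± 2.34 CPM (reads per M reads of the TMM-normalised library) in GFP and 808 ± 73.2 CPM in ERRg (SD, n = 4 each), with reads of the virus and of the cells' own gene not separated. Within ERRg, replicates 1 and 2 resembled each other more than they resembled replicates 3 and 4. On the TMM scale summed levels of 4 of the 6 marker lists were lower in ERRg with no overlap between the groups, and the ranges of the epithelial and immune lists overlapped. The neuroblastoma list ranged from 732 to 828 CPM in GFP and from 503 to 553 CPM in ERRg (0 of 7 tested genes higher, 5 lower), and the neural progenitor list from 3577 to 4867 CPM and from 1085 to 1288 CPM (0 higher and 4 lower of 4). The fibroblast list gave 1636 to 1827 and 909 to 1008 CPM (1 higher, 6 lower of 7), the epithelial list 236 to 316 and 171 to 242 CPM (0 higher, 2 lower of 3), the Schwann cell list 4.71 to 5.33 and 3.45 to 4.51 CPM (1 higher, 2 lower of 4), and no immune marker had enough reads to be tested (0.178 to 0.684 and 0.123 to 0.658 CPM). Single genes made up most of some sums. Mean levels in GFP and ERRg were 3469 and 903 CPM for VIM (neural progenitor), 1432 and 809 CPM for COL3A1 (fibroblast) and 234 and 183 CPM for KRT18 (epithelial). Of all tested coding genes 50.6% were lower. In the offset fit described below, which takes up GC content, transcript length and span, the counts were 1 higher and 2 lower for the neuroblastoma list, 0 and 4 for neural progenitors, 0 and 6 for fibroblasts, 1 and 1 for the epithelial list and 2 and 0 for Schwann cells. With library totals in place of TMM they were 2 and 4, 0 and 4, 1 and 6, 1 and 1, and 1 and 0, in that order. Whether the summed levels stay apart with other scalings was not tested. TH, CHGA, SOX1 and CD3E were listed at 0 in all libraries, as were TUBB and FLOT1, which most cells use, so a 0 was not read as absence. The part of these shifts in the RAB results was not tested, and in bulk RNA fewer cells of a type and less RNA per cell cannot be told apart.

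For 15 of 22 pairs of close relatives in the RAB family the ratio of reads did not overlap between the groups, a share near that of single genes in the whole table, and in most of these pairs the copy richer in G and C lost reads relative to the other. The coding sequences around the P-loop, the phosphate-binding motif near the start of a RAB, show how the copies differ in letters while serving the same motif. For 4 pairs described below, 60 coding bases from the first codon of the P-loop are printed, read from GENCODE release 29 transcripts on GRCh38 and written 5′ to 3′. Capitals mark a G or C at a base where the 2 genes of the pair differ.
RAB1A: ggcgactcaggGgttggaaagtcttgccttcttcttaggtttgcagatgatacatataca
RAB1B: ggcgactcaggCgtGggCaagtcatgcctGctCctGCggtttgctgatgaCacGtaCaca
RAB11A: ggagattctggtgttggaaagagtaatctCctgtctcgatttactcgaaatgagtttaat
RAB11B: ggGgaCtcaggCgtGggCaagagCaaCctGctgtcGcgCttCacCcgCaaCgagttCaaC
RAB3C: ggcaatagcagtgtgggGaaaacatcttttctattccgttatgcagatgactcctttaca
RAB3D: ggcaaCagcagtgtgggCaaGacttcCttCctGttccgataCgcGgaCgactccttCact
RAB8B: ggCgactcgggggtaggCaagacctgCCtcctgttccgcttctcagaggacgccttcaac
RAB8A: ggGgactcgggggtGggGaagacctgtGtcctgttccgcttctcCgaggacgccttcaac
The RAB1 stretches differ at 12 bases, the RAB11 stretches at 17, the RAB3 stretches at 13 and the RAB8 stretches at 6. In the RAB1, RAB11 and RAB3 pairs the gene whose share of the pair's reads was lower in ERRg holds nearly all the capitals (RAB1B 10 against 1 in RAB1A, RAB11B 16 against 1 in RAB11A, RAB3D 10 against 1 in RAB3C), though the RAB11 direction turned once GC content was part of the fit, as given below. The RAB8 pair does not show this, with 5 capitals in RAB8A, whose share was lower in ERRg, and 4 in RAB8B. G and C make up 45% of the RAB1A stretch and 60% of the RAB1B stretch, 38.3% and 63.3% for RAB11A and RAB11B, 41.7% and 56.7% for RAB3C and RAB3D, and 63.3% and 65% for RAB8B and RAB8A.

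RAB genes moved in both directions in ERRg. With edgeR's quasi-likelihood test and TMM scaling, 16 of the 54 tested members were higher and 23 were lower at an adjusted p under 0.05, and 15 were not called. Over all tested genes 38.8% were higher and 35.9% lower, so with this scaling the members' share of rises was below, and their share of falls above, that of the table. Of the 13433 tested coding genes 3890 were higher and 6793 lower, the latter 50.6% of them, while the members' shares were 29.6% and 42.6%. The median log2 fold change (ERRg over GFP) was -0.06 for the members, 0.09 for all tested genes and -0.30 for coding genes. Libraries of the groups did not overlap for 13 members that were higher and 23 that were lower, 36 of 54 in all, against 33.9% and 34.6% of all tested genes, or 68.4% together. Tested against a log2 fold change of 1 rather than 0, RAB30 and RAB3C were higher and RAB3D, RAB1B, RAB40C, RAB11B and RAB32 lower, 2 and 5 of 54, against 7.69% and 10.5% of all tested genes.

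The balance between rises and falls depended on the scaling. With upper-quartile factors, which put the median of all genes at 0.40 in place of 0.09, 27 members were higher and 18 lower, so that 60% of called members were higher in place of 41.0%, and all genes gave 50.2% higher and 27.5% lower. With library totals the counts were 29 and 17 (63.0% higher), with all genes at a median of 0.50 and at 53.6% higher and 24.5% lower. With TMM on coding genes alone 27 members were higher and 18 lower, beside 5474 higher and 5322 lower of the 13433 coding genes in that fit. Leaving out GFP replicate 4 left 9 members higher and leaving out GFP replicate 1 left 10, while 23 or 24 members were lower whichever library was left out. GC content, transcript length and genomic span were also put into the fit as per-library offsets, estimated over coding genes. That fit gave 13 members higher and 24 lower, against 30.4% and 41.5% of the 13426 coding genes fitted, and its log2 fold change is given below as the offset value.

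**Figure D1:**
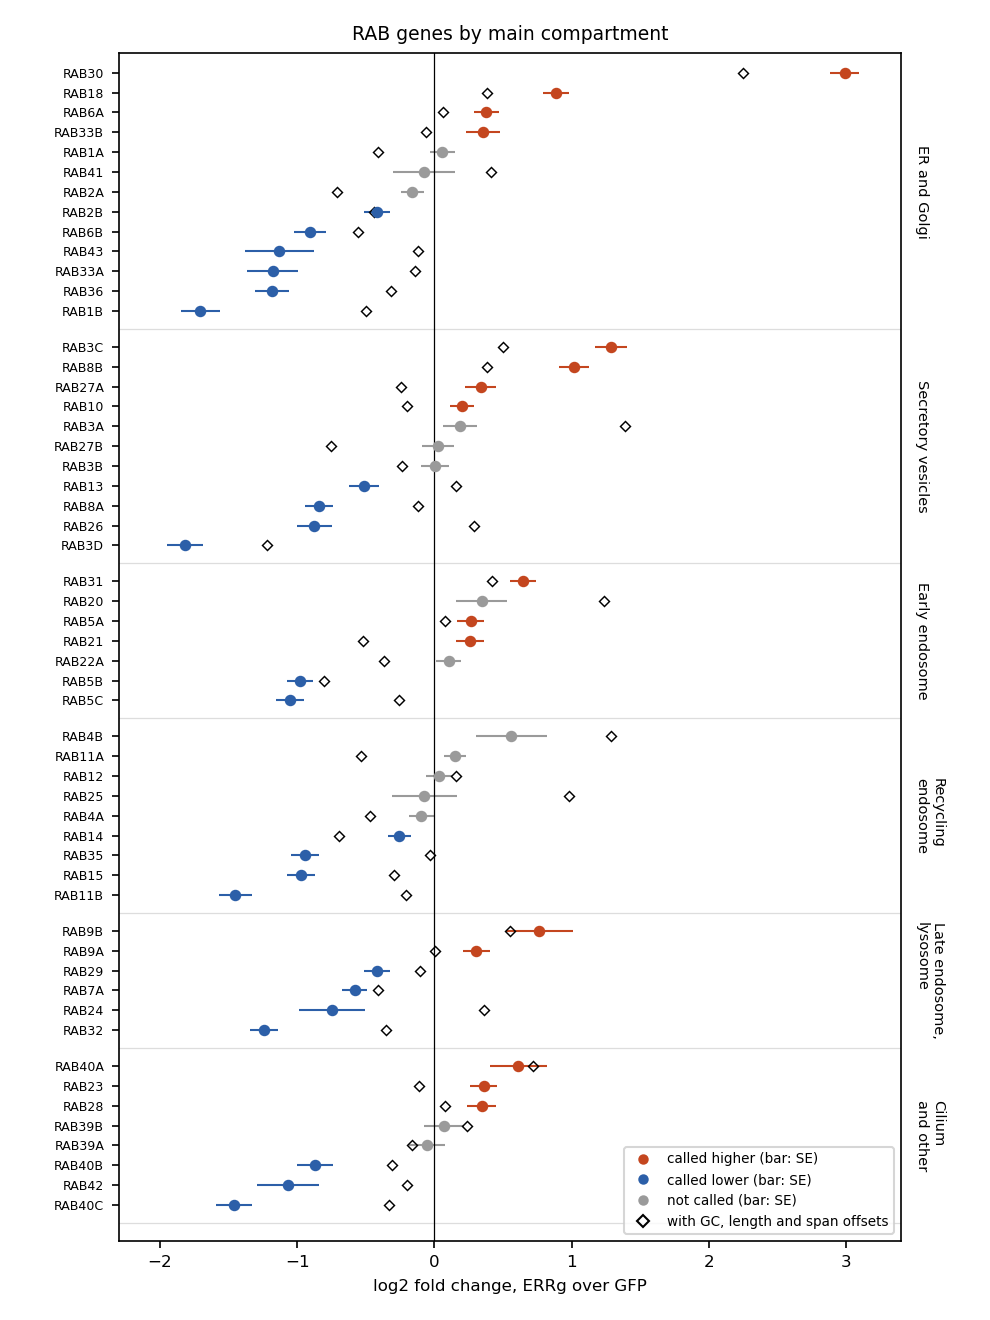
Log2 fold change (ERRg over GFP, x axis) of the 54 tested RAB genes, grouped by main compartment, with bars for the SE and open diamonds for the fit with GC, length and span offsets. RAB30 stands far to the right of the other members in both fits (2.99 and 2.25), and most of the strongest falls move toward 0 with the offsets, where RAB3D is still the lowest (-1.82 and -1.22).

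Calls that held with other scalings (DESeq2 size factors, upper-quartile factors, library totals, coding genes alone), other tools (DESeq2, limma-voom), no low-count filter, the replicate number as a block, the offsets and each library left out in turn were 5 of the 16 rises and 11 of the 23 falls. The rises were RAB18, RAB30, RAB31, RAB3C and RAB8B. The falls were RAB11B, RAB15, RAB1B, RAB32, RAB36, RAB3D, RAB40B, RAB40C, RAB5B, RAB5C and RAB6B. All 23 falls, and 7 of the 16 rises (these 5 with RAB6A and RAB23), held without each library in turn. Neither count was made over all tested genes, so neither can be called particular to RABs. RAB2B, RAB13, RAB14, RAB24 and RAB29 were not called lower with upper-quartile factors, library totals or coding genes alone. RAB10, RAB21 and RAB27A were called higher with TMM and lower with the offsets, and RAB26 was called lower and then higher. Of members called in both fits, 16.0% had opposite directions, against 11.5% of all genes called in both.

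Members of the ER and Golgi group route cargo out of the endoplasmic reticulum and through the Golgi stack. Of 13 tested, 4 were higher and 6 lower, with a median log2 fold change of -0.16. The counts of this group and of those below stand beside 38.8% higher and 35.9% lower over all tested genes. Over coding genes 50.6% were lower. RAB30, a RAB of the Golgi stack, rose more than any other member. Values of replicates 1 to 4, in that order, are given here and below. RAB30 was counted at 15.1, 15.5, 18.1 and 17.2 CPM in the GFP libraries and 148, 139, 114 and 122 CPM in the ERRg libraries. Its mean was 7.94-fold higher (log2 fold change 2.99, SE 0.11, edgeR adjusted p = 3.51e-14, offset value 2.25), it ranked 84 from the highest log2 fold change among 21993 tested genes, and the lowest ERRg library was several times the highest GFP library. The gene (ENSG00000137502.10) lies on chromosome 11 from 82973133 to 83071923 on GRCh38. RAB18, which acts at the ER and on lipid droplets, was counted at 39.4, 37.9, 40.6 and 39.4 CPM in the GFP libraries and 80.7, 77.8, 63.9 and 68.4 CPM in the ERRg libraries. It was higher in each ERRg library than in any GFP library (log2 fold change 0.89, SE 0.09, edgeR adjusted p = 3.41e-08, offset value 0.38), and ERRg replicates 1 and 2 were above replicates 3 and 4.

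RAB1B, needed for traffic from the ER to the Golgi, showed the strongest fall of this group. It was counted at 84.2, 100.4, 73.8 and 85.2 CPM in the GFP libraries and 20.7, 20.2, 33.7 and 30.8 CPM in the ERRg libraries (log2 fold change -1.70, SE 0.14, edgeR adjusted p = 1.31e-09, offset value -0.50). The groups did not overlap, and ERRg replicates 1 and 2 were the lowest. RAB1B lies on chromosome 11 from 66268533 to 66277492, and 42.6% of its exon bases face exons of genes on the other strand. RAB36, a Golgi-associated RAB, was counted at 17.8, 21.04, 18.5 and 18.6 CPM in the GFP libraries and 7.65, 6.65, 9.73 and 9.43 CPM in the ERRg libraries (log2 fold change -1.18, SE 0.12, edgeR adjusted p = 2.87e-08, offset value -0.32), again with no overlap. RAB6A, the main RAB of Golgi retrograde transport, was higher, with a log2 fold change of 0.38 (offset value 0.06, not called), and its neuronal relative RAB6B was lower at -0.91 (offset value -0.56, called lower). Reads of RAB6A are uncertain because 34% of its 31-base words also occur in RAB6C or RAB6D. RAB33A and RAB43 fell with TMM (-1.18 and -1.13) and were not called with the offsets (-0.14 and -0.12), and RAB43 shares 79.3% of its exon bases with the readthrough gene ISY1-RAB43. RAB1A, RAB2A and RAB41 were not called, at 0.06, -0.16 and -0.08. With the offsets RAB1A and RAB2A were called lower, at -0.41 and -0.71.

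Secretory RABs bring vesicles to the plasma membrane. Of 11 tested, 4 were higher and 4 lower, with a median of 0.03, and leaving out GFP replicate 1 or 4 left 2 higher. RAB3C, a RAB of synaptic and secretory vesicles, was counted at 5.57, 6.49, 6.19 and 6.71 CPM in the GFP libraries and 16.3, 16.8, 13.95 and 13.7 CPM in the ERRg libraries (log2 fold change 1.29, SE 0.12, edgeR adjusted p = 4.41e-09, offset value 0.50). Its highest GFP library was below its lowest ERRg library. RAB3D, the form best known from exocrine and endocrine granules, went the other way and was counted at 29.6, 33.8, 27.8 and 26.6 CPM in the GFP libraries and 6.87, 6.87, 9.85 and 9.84 CPM in the ERRg libraries. This was the largest fall among the members (log2 fold change -1.82, SE 0.13, edgeR adjusted p = 2.25e-10, offset value -1.22), and the groups lay far apart. RAB3C (ENSG00000152932.8) lies on chromosome 5 from 58582221 to 58859394 and RAB3D (ENSG00000105514.8) on chromosome 19 from 11322046 to 11346270. Of the exon bases of RAB3D, 23.8% face exons of genes on the other strand and 4.37% lie in other genes of the same strand.

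RAB8B, which takes part in exocytosis and cilium formation, was counted at 17.7, 19.9, 21.7 and 22.6 CPM in the GFP libraries and 48.3, 44.2, 34.97 and 38.1 CPM in the ERRg libraries (log2 fold change 1.02, SE 0.11, edgeR adjusted p = 6.08e-08, offset value 0.39). The groups did not overlap. RAB26, a RAB of secretory granules, was counted at 12.5, 14.9, 14.8 and 15.6 CPM in the GFP libraries and 6.87, 7.25, 9.93 and 7.48 CPM in the ERRg libraries (log2 fold change -0.88, SE 0.13, edgeR adjusted p = 2.91e-06), also without overlap. Its direction turned with the offsets, to 0.29, which was called higher. RAB3A, the main RAB of synaptic vesicles, and RAB3B were not called with TMM, at 0.19 and 0.00. With the offsets RAB3A was called higher, at 1.39, and RAB3B lower, at -0.24. RAB27A and RAB10 were higher with TMM (0.34 and 0.20) and lower with the offsets (-0.24 and -0.20), and RAB10 lost its call without any of 7 of the 8 libraries. RAB27B, at 0.03 with TMM, was called lower with the offsets (-0.75), while RAB13 and RAB8A fell with TMM (-0.51 and -0.84) and were not called with them (0.16 and -0.12).

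**Figure D2:**
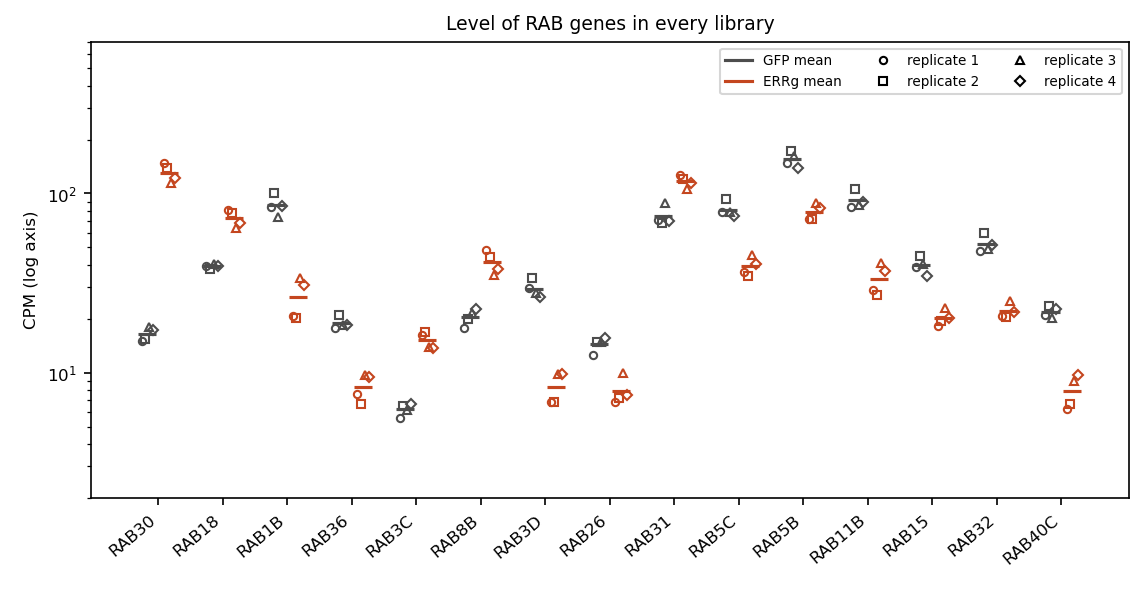
CPM (log axis) of 15 RAB genes in every library, GFP in grey and ERRg in red, with a symbol for each replicate and a line at the group mean. The 4 ERRg libraries of RAB30 lie between 114 and 148 CPM, far above its GFP libraries. The genes drawn are a selection in which the groups do not overlap, and RAB5A and RAB9B, which overlap, are not drawn. Of all tested genes 68.4% do not overlap.

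Early endosome RABs receive cargo from the cell surface. Of 7 tested, 3 were higher and 2 lower (median 0.26), against 2 and 4 in the offset fit. RAB31, which moves cargo from the Golgi to endosomes, was counted at 71.6, 68.8, 88.9 and 69.9 CPM in the GFP libraries and 127, 121, 107 and 114 CPM in the ERRg libraries (log2 fold change 0.65, SE 0.10, edgeR adjusted p = 5.05e-06, offset value 0.42). GFP replicate 3 was the highest GFP library and still lay below every ERRg library. RAB5A, which drives fusion of early endosomes, was counted at 34.04, 39.2, 44.1 and 39.02 CPM in the GFP libraries and 48.3, 50.6, 46.4 and 42.2 CPM in the ERRg libraries (log2 fold change 0.26, SE 0.10, edgeR adjusted p = 0.0185, offset value 0.08, not called). Its groups overlapped, and the call was lost without any of GFP replicates 1 to 4 or without ERRg replicate 2. The number of rises in this group fell from 3 to 1 without each of those 5 libraries.

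The other copies of RAB5 fell. RAB5B was counted at 148, 173, 161 and 139 CPM in the GFP libraries and 71.8, 71.8, 88.4 and 83.2 CPM in the ERRg libraries (log2 fold change -0.98, SE 0.10, edgeR adjusted p = 1.55e-08, offset value -0.80). RAB5C was counted at 78.5, 93.5, 78.7 and 74.9 CPM in the GFP libraries and 36.6, 34.7, 45.5 and 40.5 CPM in the ERRg libraries (log2 fold change -1.05, SE 0.10, edgeR adjusted p = 1.12e-08, offset value -0.26). Neither gene overlapped between groups, and on the CPM scale RAB5B was 1.97-fold and RAB5C 2.07-fold higher in GFP than in ERRg. RAB5B kept most of its fall with the offsets, while the fall of RAB5C shrank, and 28.8% of the exon bases of RAB5C lie in another gene of the same strand. RAB21, a RAB of integrin traffic, turned from higher (0.26) to lower (-0.52) with the offsets. RAB22A and RAB20 were not called, at 0.10 and 0.35, and with the offsets they were called lower (-0.37) and higher (1.24).

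Recycling RABs return receptors to the surface. Of 9 tested, 0 were higher and 4 lower (median -0.10), against 3 and 5 in the offset fit. Without ERRg replicate 4, 1 was higher. Upper-quartile factors gave 4 higher and 3 lower. RAB11B, a RAB of the slow recycling endosome that is abundant in brain, was counted at 84.4, 107, 85.7 and 89.9 CPM in the GFP libraries and 28.9, 27.1, 41.1 and 36.95 CPM in the ERRg libraries (log2 fold change -1.45, SE 0.12, edgeR adjusted p = 1.31e-09, offset value -0.21). RAB15, found on recycling endosomes and abundant in neurons, was counted at 38.7, 45.1, 40.4 and 34.5 CPM in the GFP libraries and 18.2, 19.5, 22.9 and 20.2 CPM in the ERRg libraries (log2 fold change -0.97, SE 0.10, edgeR adjusted p = 4.19e-08, offset value -0.29). For both genes every ERRg library was below every GFP library. RAB11B lies on chromosome 19 from 8389981 to 8404434 and RAB15 on chromosome 14 from 64945814 to 64973226. RAB35, which controls fast recycling and neurite outgrowth, was lower at -0.94, and with the offsets it stood at -0.03 and was not called. RAB14 was lower at -0.25, but the sign turned with upper-quartile factors (0.05), library totals (0.15) and coding genes alone (0.06). RAB11A, RAB4A, RAB4B, RAB12 and RAB25 were not called, between -0.10 and 0.56. With the offsets RAB11A and RAB4A were called lower (-0.54 and -0.47), and RAB4B, RAB25 and RAB12 higher (1.29, 0.98 and 0.16). Reads of RAB4B are uncertain because 60.8% of its 31-base words also occur in other genes.

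Late endosomal and lysosomal RABs deliver cargo for breakdown. Of 6 tested, 2 were higher and 4 lower, with a median of -0.50, against 1 and 2 in the offset fit. RAB32, which acts in the biogenesis of lysosome-related organelles and at mitochondria, was counted at 48.1, 60.3, 48.97 and 51.6 CPM in the GFP libraries and 20.8, 20.6, 25.3 and 21.9 CPM in the ERRg libraries (log2 fold change -1.24, SE 0.10, edgeR adjusted p = 1.06e-09, offset value -0.35). RAB24, linked to autophagy, was counted at 2.43, 2.24, 1.44 and 1.56 CPM in the GFP libraries and 1.03, 0.826, 1.31 and 1.42 CPM in the ERRg libraries (log2 fold change -0.75, SE 0.24, edgeR adjusted p = 0.00851). Neither overlapped between groups, but the offset value of RAB24 was 0.36 and was not called, the fall was also not called with upper-quartile factors, library totals or coding genes alone, and it shares 44.8% of its exon bases with MXD3. RAB9A, which returns mannose 6-phosphate receptors to the Golgi, was counted at 17.2, 15.6, 17.3 and 15.7 CPM in the GFP libraries and 22.7, 20.02, 18.3 and 20.5 CPM in the ERRg libraries (log2 fold change 0.31, SE 0.10, edgeR adjusted p = 0.00897, offset value 0.01, not called). RAB9B was counted at 2.11, 1.45, 1.51 and 1.56 CPM in the GFP libraries and 3.46, 3.91, 1.56 and 2.32 CPM in the ERRg libraries (log2 fold change 0.76, SE 0.24, edgeR adjusted p = 0.00813, offset value 0.55). The call for RAB9A was lost without any of the 4 GFP libraries, that for RAB9B was lost without GFP replicate 3 or ERRg replicate 2, and the ERRg libraries of RAB9B overlapped the GFP libraries. The number of rises in this group fell from 2 to 0 without GFP replicate 3, and to 1 without GFP replicate 1, 2 or 4 or ERRg replicate 2.

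RAB7A, the RAB that directs fusion of late endosomes with lysosomes, was the member with the most reads per kilobase of transcript in both groups. Its level was 162 CPM per kb in GFP and 108 CPM per kb in ERRg. On the CPM scale it went from 363 ± 36.3 CPM in GFP to 243 ± 14.1 CPM in ERRg (SD, n = 4 each), with no overlap (log2 fold change -0.58, SE 0.09, edgeR adjusted p = 9.36e-06, offset value -0.41), but with library totals it was not called. The next members in GFP were RAB11B (52.3 CPM per kb), RAB32 (42.9), RAB1B (42.8), RAB5C (42.6) and RAB10 (41.6), of which the last 4 differed by less than their spread over libraries. In ERRg they were RAB10 (47.7 CPM per kb), RAB6A (42.2), RAB1A (40.7), RAB11A (33.2) and RAB31 (28.9), where RAB6A and RAB1A differed by less than their spread. RAB10 was among the members named after RAB7A in both groups, and the others named differed between the groups. On the TMM scale the reads of all members together summed to 2775 ± 150 CPM in GFP and 2500 ± 76.9 CPM in ERRg (SD, n = 4 each). Whether this sum is lower in ERRg on other scales was not tested. The members' median log2 fold change was -0.06 on this scale, 0.24 for upper-quartile factors and 0.34 for library totals, so its sign depended on the scaling.

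The last group holds RABs of the cilium and less studied members. Of 8 tested, 3 were higher and 3 lower (median 0.01), against 1 and 2 in the offset fit. RAB23, a ciliary RAB that restrains hedgehog signalling, was counted at 16.8, 15.3, 18.2 and 17.99 CPM in the GFP libraries and 24.3, 21.2, 21.7 and 20.4 CPM in the ERRg libraries (log2 fold change 0.36, SE 0.10, edgeR adjusted p = 0.00295, offset value -0.11, not called). Its groups did not overlap, and 57.7% of its exon bases face exons of BAG2 on the other strand. RAB40C, which serves as a substrate receptor of a cullin ubiquitin ligase, was counted at 21.1, 23.6, 20.3 and 22.7 CPM in the GFP libraries and 6.30, 6.72, 9.03 and 9.76 CPM in the ERRg libraries (log2 fold change -1.46, SE 0.13, edgeR adjusted p = 2.95e-09, offset value -0.33). RAB42 was counted at 2.25, 3.21, 2.09 and 2.02 CPM in the GFP libraries and 0.864, 0.977, 1.35 and 1.38 CPM in the ERRg libraries (log2 fold change -1.07, SE 0.23, edgeR adjusted p = 2.72e-04, offset value -0.20, not called). Both fell without overlap. RAB40A was counted at 1.998, 1.55, 1.91 and 1.28 CPM in the GFP libraries and 3.09, 3.12, 2.09 and 2.03 CPM in the ERRg libraries (log2 fold change 0.61, SE 0.21, edgeR adjusted p = 0.0129, offset value 0.72), the call was lost without GFP replicate 4, ERRg replicate 1 or ERRg replicate 2, and 19.5% of its 31-base words occur in its near copies. RAB40B was lower (-0.87) and RAB28 higher (0.35), the latter not without GFP replicate 1. RAB39A and RAB39B, the latter a gene of X-linked intellectual disability and early parkinsonism, were not called, at -0.05 and 0.07.

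The 9 members left untested were RAB6C, RAB6D, RAB7B, RAB17, RAB19, RAB34, RAB37, RAB38 and RAB44. None had more than 12 reads in any library, or 0.432 CPM. Without a filter on low counts, RAB7B was called lower (GFP 11, 7, 12 and 9 reads, ERRg 4, 1, 8 and 0 reads, log2 fold change -1.47, SE 0.57, edgeR adjusted p = 0.0258), though its libraries overlapped between groups and DESeq2 did not call it. RAB6D was called higher in that fit from 6 reads in all, 3 in each of ERRg replicates 3 and 4, against 0 in the other libraries, so no fold is given. RAB34 had 4, 11, 5 and 10 reads in GFP and 3, 2, 3 and 3 in ERRg, with no overlap on the CPM scale, and was not called. For the other 6 a difference was not detectable at this depth.

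Genes with the same number and a different letter encode close copies of 1 RAB, so their reads were compared within each library. Over 22 pairs, the log2 ratio of reads did not overlap between groups for 15 (exact two-sided permutation p = 0.0286 for each, the smallest this design allows, 0.0419 after Benjamini-Hochberg adjustment over the 22). Pairs of 1 subfamily share genes and are not independent, and these ratios were added after the data had been seen. These 15 are 68.2% of the pairs, against 68.4% of single tested genes without overlap, so the share is near the background. In 8 of the pairs the genes carried opposite calls. Only RAB3C with RAB3D, RAB6A with RAB6B and RAB8A with RAB8B, 3 pairs, did so without GFP replicate 4, and 4 pairs did without ERRg replicate 2, 5 without GFP replicate 2 and 6 without GFP replicate 1, GFP replicate 3 or ERRg replicate 1. With the offsets 3 of the 8 kept their opposite calls (RAB3C with RAB3D, and RAB40A with RAB40B and with RAB40C). That fit had 7 pairs with opposite calls in all. The others were RAB3A with RAB3B and with RAB3D, RAB3B with RAB3C and RAB4A with RAB4B. Upper-quartile factors, library totals and coding genes alone each gave 12 such pairs, with the 8 among them.

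**Figure D3:**
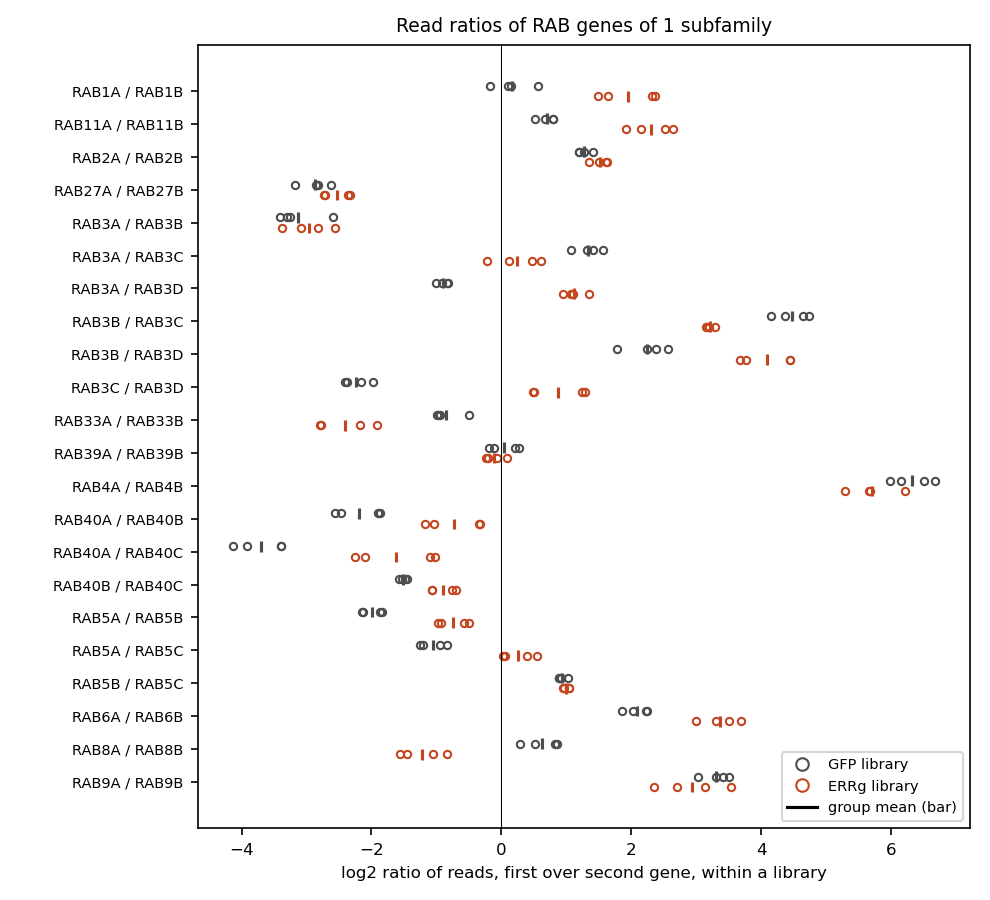
Log2 ratio of reads of the first over the second gene of 22 subfamily pairs in each library (circles), GFP in grey and ERRg in red, with bars at the group means. RAB3C over RAB3D crosses 0, from -2.23 in GFP to 0.88 in ERRg, as does RAB8A over RAB8B, from 0.62 to -1.22, while RAB5B over RAB5C stays near 1. Transcript length is not taken into account, so the place of 0 does not mark equal levels.

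The RAB3 pair printed above moved furthest in the ratio of reads. With the offsets RAB3A to RAB3D differed more, by 2.61 (2.02 without them). The log2 ratio of RAB3C to RAB3D was -2.41, -2.38, -2.16 and -1.98 in the GFP libraries and 1.24, 1.29, 0.50 and 0.48 in the ERRg libraries. RAB3D had several times the reads of RAB3C in each GFP library and fewer in each ERRg library, and the mean difference was 3.11 (1.72 with the offsets). These ratios take no account of transcript length, which is 8896 bases for RAB3C and 4273 for RAB3D. Per kb of transcript, the mean of RAB3D was above that of RAB3C in GFP (6.89 against 0.70 CPM per kb). In ERRg the means per kb were 1.96 and 1.71, so the exchange of places holds for reads alone. The RAB8 pair also exchanged places in reads not adjusted for length, with a log2 ratio of RAB8A to RAB8B of 0.86, 0.82, 0.53 and 0.29 in the GFP libraries and -1.56, -1.45, -0.84 and -1.05 in the ERRg libraries. RAB8A had more reads in each GFP library and RAB8B in each ERRg library (mean difference -1.85, and -0.50 with the offsets). Of the exon bases of RAB8A, 37.8% face exons on the other strand.

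For the RAB1 pair, the log2 ratio of RAB1A to RAB1B was 0.10, -0.17, 0.56 and 0.15 in the GFP libraries and 2.32, 2.36, 1.49 and 1.64 in the ERRg libraries. The copies were near even in GFP, and RAB1A had more reads in each ERRg library (mean difference 1.79). With the offsets the difference was 0.09. The RAB11 ratio, RAB11A to RAB11B, was 0.80, 0.51, 0.80 and 0.67 in the GFP libraries and 2.52, 2.65, 1.92 and 2.15 in the ERRg libraries. It rose by a mean of 1.61, and with the offsets its sign turned, to -0.33. The RAB33 ratio also shrank to near 0 with the offsets (RAB33A to RAB33B, -1.56 and -0.08), and RAB3A to RAB3C turned from -1.10 to 0.89. Shifts of 3 further pairs were smaller with the offsets but kept their sign, at 1.25 and 0.88 for RAB5A to RAB5B, 1.29 and 0.62 for RAB6A to RAB6B, and 2.09 and 1.05 for RAB40A to RAB40C. RAB40B to RAB40C went from 0.61 to 0.02, and RAB5B to RAB5C, which overlapped between groups, from 0.07 to -0.55. Of the 15 ratios without overlap, 13 kept their sign with the offsets. In 14 of the 15, the gene that gained had the lower GC content over its longest transcript.

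Fold change followed GC content across the family. Among 16 tested members with a transcript GC content under 40%, 10 were higher and 1 was lower, with a median of 0.32. Of 17 members from 40% to under 50%, 6 were higher and 5 lower (median 0.03), and of 21 at 50% or more, 0 were higher and 17 lower (median -0.97). Over the 54 tested members, which share the same libraries, Pearson's r between log2 fold change and GC content was -0.71 and Spearman's rho was -0.70, given as a description. All 13426 coding genes gave -0.65 and -0.70, with medians of 0.58, 0.01 and -1.0 in the same 3 classes, so RABs followed a relation seen over coding genes at large. With the offsets the medians of the members were -0.18, 0.06 and -0.20. The share of reads outside exons moved with the groups in the same libraries, and its part in this relation was not tested.

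**Figure D4:**
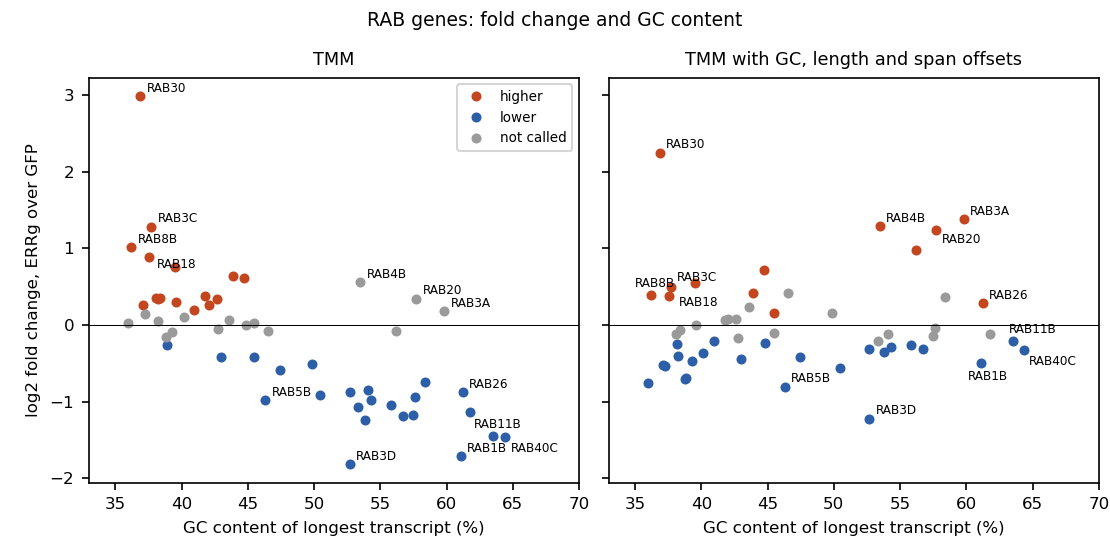
Log2 fold change (ERRg over GFP, y axis) of the 54 tested RAB genes against the GC content of the longest transcript (x axis), with TMM on the left and with GC, length and span offsets on the right, coloured by call. On the left, 0 of 21 members at 50% GC or more are called higher, and on the right RAB3A, RAB4B, RAB20, RAB25 and RAB26 are, while RAB30 stays at the top of both panels.

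Promoter windows were searched on both strands for the response element of the receptor and for common promoter motifs. Each window was the 250 bases before a RefSeq start (GRCh38.p14), and bases after the start were not searched. Windows were found for 50 members, 71 in all. The estrogen-related receptor element TNAAGGTCA occurred in 0.859% of all 34943 windows and in 0 of the 71. Its shorter core AAGGTCA, which lies within the longer form, occurred in 3.44% of all windows and among the members in that of RAB24 alone. The GC box GGGCGG, read by SP1, occurred in 42.5% of all windows and in 51 of the 71 member windows (71.8%), which belong to 41 of the 50 members. The palindrome TCACGTGA, read by TFEB and related factors, occurred in 0.856% of all windows and in those of RAB21 and RAB5A. A match describes letters, not binding, and these windows leave out distal elements.

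The proteins that set the RAB cycle moved in both directions as well. Of 49 tested exchange factors 18 were higher and 25 lower (median -0.32), of 36 GTPase-activating proteins 11 and 18 (median -0.31), of 42 effectors 13 and 22 (median -0.38), of 8 genes of prenylation and membrane dissociation 3 and 3 (median -0.09), and of 7 RAB-like GTPases 2 and 4 (median -0.45). Of all 13433 tested coding genes 3890 were higher and 6793 lower, the latter 50.6% of them, with a median of -0.30. With the offsets the counts were 15 and 20, 10 and 16, 15 and 14, 3 and 3, and 2 and 3, in that order, against 30.4% and 41.5% of coding genes. With library totals 23 exchange factors were higher and 18 lower, and 17 effectors were higher and 11 lower. RAB3GAP1 and RAB3GAP2, named as activating proteins of RAB3, were counted among exchange factors only. Both were higher with TMM (0.24 and 0.68) and not called with the offsets (-0.03 and 0.11).

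**Figure D5:**
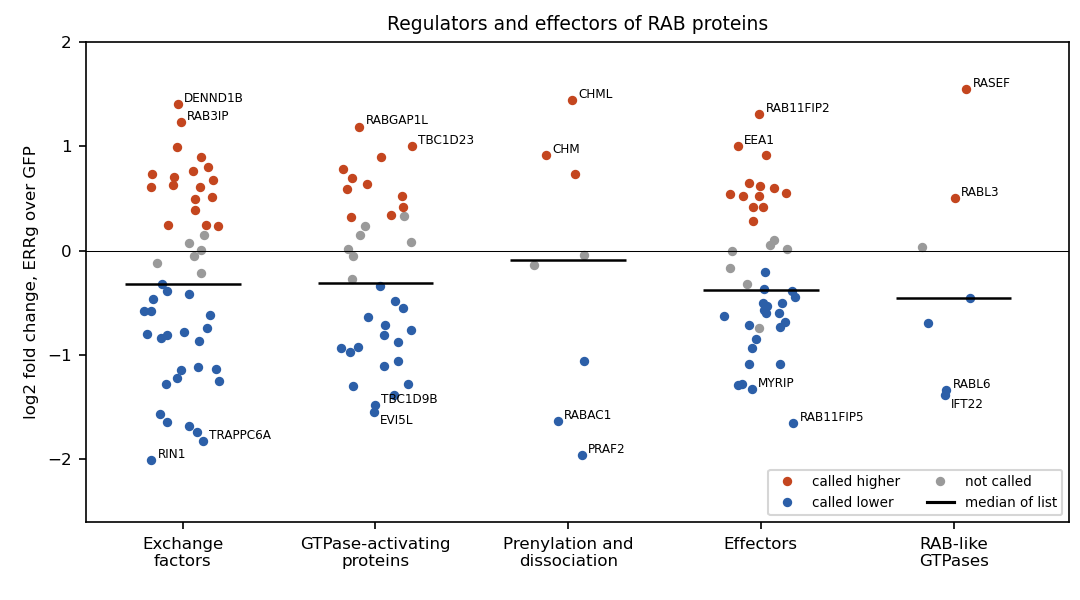
Log2 fold change (ERRg over GFP, y axis) of tested genes of 5 lists of RAB regulators, effectors and relatives, coloured by call, with a bar at each list's median. In each list genes lie on both sides of 0, from RASEF, CHML and DENND1B at the top to RIN1, PRAF2 and TRAPPC6A at the bottom.

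Among exchange factors, RAB3IP, which activates RAB8, was counted at 10.3, 9.87, 11.8 and 10.6 CPM in the GFP libraries and 28.4, 27.98, 20.8 and 22.6 CPM in the ERRg libraries (log2 fold change 1.23, SE 0.12, edgeR adjusted p = 7.03e-09, offset value 0.70). DENND1B, an exchange factor for RAB35, was counted at 11.4, 9.14, 8.42 and 12.9 CPM in the GFP libraries and 31.5, 31.7, 22.8 and 24.6 CPM in the ERRg libraries (log2 fold change 1.40, SE 0.14, edgeR adjusted p = 1.20e-08, offset value 0.58). Both were higher in each ERRg library than in any GFP library. RIN1, an exchange factor for RAB5, fell from 26.7 ± 2.91 CPM in GFP to 6.63 ± 1.79 CPM in ERRg (log2 fold change -2.01, SE 0.14, edgeR adjusted p = 2.44e-10, offset value -0.76), and TRAPPC6A, a TRAPP subunit, fell from 5.73 ± 1.07 CPM in GFP to 1.62 ± 0.203 CPM in ERRg (log2 fold change -1.83, SE 0.18, edgeR adjusted p = 1.03e-08, offset value -0.47; SD, n = 4 each). Of the TBC domain genes, RABGAP1L and TBC1D23 rose (1.19 and 1.0, offset values 0.43 and 0.54), and EVI5L and TBC1D9B fell (-1.54 and -1.48, offset values -0.39 and -0.66).

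The Rab escort proteins, which hand new RABs to the prenyl transferase, both rose. CHML (escort protein 2) was counted at 34.4, 41.8, 38.9 and 47.2 CPM in the GFP libraries and 134, 125, 87.01 and 94.96 CPM in the ERRg libraries (log2 fold change 1.44, SE 0.13, edgeR adjusted p = 3.07e-09, offset value 1.03), and CHM (escort protein 1, lost in choroideremia) rose from 35.8 ± 2.34 CPM in GFP to 67.7 ± 8.75 CPM in ERRg (SD, n = 4 each, log2 fold change 0.92, offset value 0.20). PRAF2 and RABAC1, which belong to the PRA1 family of RAB-binding membrane proteins, fell (-1.96 and -1.63). With the offsets PRAF2 stayed lower (-0.72) and RABAC1 was not called (-0.15).

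Of 5 RAB11 effectors of the RAB11FIP family, 1 was higher and 3 lower. With TMM, RAB11FIP1 and RAB11FIP4 were lower (-0.72 and -0.57) and RAB11FIP3 was not called (-0.16). With the offsets RAB11FIP1 stayed lower (-0.41), RAB11FIP4 was not called (-0.13) and RAB11FIP3 was called higher (0.83). RAB11FIP4 was also not called with library totals. RAB11FIP2, which links RAB11 to the motor myosin Vb, was counted at 17.4, 16.1, 19.2 and 20.5 CPM in the GFP libraries and 51.8, 50.1, 39.4 and 39.6 CPM in the ERRg libraries (log2 fold change 1.31, SE 0.11, edgeR adjusted p = 2.01e-09, offset value 0.75). RAB11FIP5 was counted at 55.98, 63.2, 51.6 and 62.03 CPM in the GFP libraries and 15.8, 16.8, 21.2 and 20.4 CPM in the ERRg libraries (log2 fold change -1.65, SE 0.11, edgeR adjusted p = 1.18e-10, offset value -0.78). The groups did not overlap for either gene, and the directions were opposite in both fits. EEA1, the tether of early endosomes that binds RAB5, rose by 1.0 on the log2 scale (offset value 0.15, not called). MYRIP, which links RAB27 on granules to myosin VIIa, fell from 10.8 ± 0.685 CPM in GFP to 4.28 ± 0.146 CPM in ERRg (SD, n = 4 each), by a log2 fold change of -1.33 that the offsets left at -1.25. Among RAB-like genes, RASEF and RABL3 rose (1.55 and 0.51, offset values 1.31 and 0.04) and IFT22 and RABL6 fell (-1.39 and -1.33, offset values -0.82 and -0.29), with RABL3 not called under the offsets.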

How the data were processed

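The deposited table holds unnormalised read counts of each gene in 4 GFP and 4 ERRg libraries. Per the labels' protocols, directional libraries were made from Trizol RNA after ribosomal RNA depletion. Tools named in the submitters' processing notes are STAR 2.7.8a, HTSeq 0.11.3, Trim Galore 0.6.6, DESeq2 and CASAVA, with the build GRCh38. For the counting, annotation release and strand setting are stated in none of the sources used here, so reads of overlapping genes on opposite strands may not be separated. The 5 summary lines that name no gene stayed out of library sizes and tests.

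Symbols were matched through a name table (60463 identifiers) and positions, GC content and lengths from GENCODE release 29 (58488 matched), using the longest transcript of each gene. All 21993 genes kept by filterByExpr were fitted with edgeR 4.0.16 in R 4.3.3 (quasi-likelihood, TMM, group as the sole term, two-sided, Benjamini-Hochberg, adjusted p under 0.05). CPM values use TMM library sizes, and 1 CPM rested on at least 24.3 reads. The offset fit subtracted, per library, smooth trends of log2 CPM on GC content, transcript length and span over coding genes. Subfamily ratios used log2 of reads plus 0.5 and exact permutation over 70 arrangements. The fits were run on simulated counts with known folds in a small part of the genes, as many up as down. Most tested genes were called here, so that check cannot show which scaling or fit is right for these data.

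Values in every library are given, per compartment group or regulator list, for up to 2 called genes with the largest rise and 2 with the largest fall at a mean of at least 1 CPM, regulators partly in short form. The members, compartment groups, regulator and marker lists were chosen with earlier results of these data known. Alternatives were DESeq2 size factors, upper-quartile factors, library totals, the DESeq2 1.42.0 Wald test, limma-voom (limma 3.58.1), no filter, at least 1 CPM in 4 libraries, coding genes alone, a replicate block, each library left out, testing against log2 fold changes of 1 and an adjusted p under 0.01.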

Additional observations from a re-analysis of the deposited data

Results flagged for a closer look

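Of 110 groups of 4 libraries examined (the 54 tested members and ESRRG, each in GFP and ERRg), 4 had 1 library apart from the other three by Dixon's criterion, which chance meets in about 1 of 20 groups, so this number is no more than chance gives. RAB22A was highest in GFP replicate 3, at 73.2 CPM against 64.8 to 65.9 CPM in the other GFP libraries. RAB28 was highest in GFP replicate 3, at 15.5 CPM against 12.9 to 13.2 CPM. RAB31 was highest in GFP replicate 3, at 88.9 CPM against 68.8 to 71.6 CPM, still below every ERRg library. RAB2B was lowest in GFP replicate 4, at 38.2 CPM against 48.2 to 48.7 CPM.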

How the results depend on the processing

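With each library left out in turn, the numbers of higher and lower members ranged from 9 to 16 and 23 to 24. By compartment, higher and lower members ranged from 3 to 4 and 6 to 7 for ER and Golgi, 2 to 4 and 4 to 4 for secretory, 1 to 3 and 2 to 2 for early endosome, 0 to 1 and 4 to 4 for recycling, 0 to 2 and 4 to 4 for late endosome and 2 to 3 and 3 to 3 for cilium and other. Regulators ranged from 14 to 18 and 25 to 25 (exchange factors), 10 to 11 and 18 to 18 (GTPase-activating), 3 to 3 and 3 to 4 (prenylation), 11 to 13 and 22 to 24 (effectors) and 2 to 2 and 4 to 4 (RAB-like). The log2 fold change of ESRRG ranged from 4.42 to 4.58. Against a log2 fold change of 1, 2 members were higher and 5 lower, ER and Golgi 1 and 1, secretory 1 and 1, early endosome 0 and 0, recycling 0 and 1, late endosome 0 and 1, cilium and other 0 and 1, exchange factors 2 and 6, GTPase-activating 0 and 5, prenylation 1 and 2, effectors 1 and 4 and RAB-like 1 and 2, since the test asks for more. At an adjusted p under 0.01, 10 members were higher, with 2 secretory and 1 early endosome.

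Upper-quartile factors, library totals and coding genes alone gave 27, 29 and 27 higher members, with 7, 7 and 7 secretory, 5, 5 and 5 early endosome and 4, 4 and 4 recycling, and late endosome falls of 2, 1 and 2. Library totals also gave 5 higher in cilium and other, 5 higher in prenylation and 11 lower effectors. The DESeq2 Wald test gave 2 higher secretory and 1 early endosome member, no filter 2, 1 and 1 (late endosome), and at least 1 CPM in 4 libraries 5 early endosome and 1 recycling. The offsets gave 2 higher in ER and Golgi, 4 lower in early endosome, 3 higher in recycling, 1 higher and 2 lower in late endosome, 1 higher in cilium and other and 14 lower effectors. The replicate block with the offsets gave 2, 4, 2, 1 and 2, 1 and 14 for these.

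Signs turned with the offsets, and with the offsets and replicate block together, for RAB10 (-0.20 and -0.20), RAB11A (-0.54 and -0.54), RAB13 (0.16 and 0.15), RAB1A (-0.41 and -0.41), RAB21 (-0.52 and -0.51), RAB22A (-0.37 and -0.37), RAB23 (-0.11 and -0.11), RAB24 (0.36 and 0.38), RAB25 (0.98 and 0.97), RAB26 (0.29 and 0.29), RAB27A (-0.24 and -0.24), RAB27B (-0.75 and -0.75), RAB33B (-0.061 and -0.055) and RAB3B (-0.24 and -0.24). They turned with upper-quartile factors, library totals and coding genes alone for RAB14 (0.051, 0.15 and 0.061) and RAB4A (0.21, 0.31 and 0.22). With library totals they also turned for RAB2A (0.24) and RAB39A (0.35). Each member listed was called with TMM, in the changed fit or in both. Sign changes of members called in neither, such as RAB2A with upper-quartile factors, are not listed. The ratios RAB11A/RAB11B and RAB3A/RAB3C turned to -0.33 and 0.89 with the offsets. The cause was not tested.

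Replicate numbers did not pair the libraries (correlations of same-numbered libraries from -0.16 to 0.09). The replicate block gave 14 higher and 23 lower members, and RAB10 and RAB21 lost their calls. The main limits are the group difference in reads outside exons, the dependence of directions on scaling and GC content, replicates of unknown independence, and called members under about 3 CPM in both groups (RAB24, RAB40A, RAB42, RAB43, RAB9B), whose values rest on few reads.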

Other observations

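Genes named for a RAB gene without being protein-coding members moved too. RAB33B-AS1, annotated antisense to RAB33B, went from 5.11 ± 1.25 CPM in GFP to 18.2 ± 1.94 CPM in ERRg (SD, n = 4 each, log2 fold change 1.84, edgeR adjusted p under the threshold), above the 0.36 of RAB33B itself. RAB30-DT, a non-coding gene next to RAB30, went from 13.3 ± 0.793 to 25.4 ± 1.34 CPM (SD, n = 4 each, log2 fold change 0.93), against 2.99 for RAB30. In neither case did the groups overlap. With TMM, RAB11B-AS1 and RAB35-AS1 were lower (-0.68 and -0.43), as were RAB11B and RAB35, and RAB4A-AS1 was not called (0.04). These depended on the scaling. RAB11B-AS1 and RAB35-AS1 were not called with upper-quartile factors (edgeR adjusted p = 0.0852 and 0.439) or library totals (0.231 and 0.870), and RAB4A-AS1 was then called higher (0.34 and 0.44). Since the strand setting of the counting is not given in the sources used here, reads of a gene and its antisense partner may not be separated.

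Among processed pseudogenes of the family, RAB1AP1, RAB5CP1 and RAB11FIP1P1 were higher (1.73, 1.27 and 1.02), with at most 17, 31 and 130 reads in a library. Of their parent genes, RAB1A was not called (0.06), and RAB5C and RAB11FIP1 were lower (-1.05 and -0.72). Reads of a processed pseudogene and its parent can be exchanged by the aligner, so these values are uncertain.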
